A study of Homo sapiens with 5 samples.

Results

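Semaphorins, plexins and neuropilins form 1 signalling family, and 31 of its genes were followed here: 20 semaphorins (the ligands), 9 plexins (the signalling receptors) and 2 neuropilins (the co-receptors). They were taken by name, as all probe sets annotated to these genes alone. That rule uses no measured value, but the list was chosen with earlier results of these data known. The rule gave 85 of the 54675 probe sets on the array, covering all 31 members among the 19775 genes with a probe set of their own. A further probe set names SEMA3B together with a microRNA gene and was left out. The samples were 5 RNA preparations of IMR32, an established human neuroblastoma line, stably carrying an inducible short hairpin RNA (shRNA) against MEIS1, a homeobox transcription factor. The hairpin is described as specific for MEIS1b. All 5 samples carried the construct, and doxycycline in the medium switched it on: the 0 h sample had none, and the others had it for 24, 48, 96 or 192 h. Each time point is 1 Affymetrix U133 Plus 2.0 array, so no difference between 2 arrays has a replicate check. No culture without doxycycline at a later time and no other hairpin was analysed here, so time in culture, doxycycline and the hairpin cannot be told apart.

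Semaphorins are secreted or membrane-bound guidance proteins that steer growing axons and migrating cells, often by collapsing the growth cone. Most bind plexins directly. Most secreted class 3 semaphorins bind a neuropilin, which has a short cytoplasmic tail and passes the signal on through a plexin, often an A-type one. Neuropilins also bind members of the VEGF family. In the sympathetic lineage, from which neuroblastoma arises, neuropilins and class 3 semaphorins take part in the migration of neural crest cells and the layout of sympathetic ganglia.

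Values are MAS5 signals, in arbitrary units with each array scaled as a whole. A probe set's signal can be followed over time, but signals of different probe sets do not rank genes by abundance. A run of 5 signals is in the order of the time points. All log2 values, fold ratios and shares of the 0 h level were taken after 4.7 was added to each signal, so the change of a dim gene comes out too small. Each gene was represented by its brightest probe set and tested only where that probe set's mean signal was at least 17.9, the median of all signals; 21 members passed. The test was limma's moderated straight-line trend over the 5 arrays, counted as steps 0 to 4 and adjusted over 11944 genes, and the fitted change is the slope over all 4 steps, given ± its standard error (SE). With no replicates, a p-value here weighs the slope against the scatter of 5 arrays about a line. That scatter is estimated in large part from other genes of similar signal, and not from repeated cultures. "Rose" and "fell" are used of genes with an adjusted p under 0.05. In bulk RNA, a change in the number of cells of a type cannot be told apart from a change in RNA per cell.

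The targeted gene did not pass the test. MEIS1 read 1052 at 0 h and 786.6 at 192 h, which is 74.9% of the 0 h level with the 4.7 added, and its fitted log2 change was -0.33 ± 0.14 (adjusted p = 0.251), and -0.13 without the 0 h array (adjusted p = 0.854). Of the adrenergic neuroblastoma markers, GATA3 (2681 to 3340), MYCN (3957 to 4418), PHOX2A (754 to 1203) and ISL1 (817.5 to 1722) were bright on all 5 arrays. HAND2 (54.4 to 140.8) and DBH (103.3 to 264.4) also passed the filter. TH, the first enzyme of catecholamine synthesis, read only 2.1 to 28.5 and did not pass the signal filter. Markers of other cells were dim. The summed signal was 26.7 to 57.2 for 5 Schwann cell genes, 51.1 to 100.1 for 7 blood and endothelial genes and 46.7 to 78.3 for 6 epithelial genes. ERBB3, CDH5, KRT8 and ESRP1 passed the filter among these lists, S100B and CD14 were at the floor of 1 at 0 h, and none of the 3 lists had a gene past the threshold. The 24 poly-A spike-in probe sets differed from the 0 h array by 0.10, -0.45, -0.61 and -0.25 (log2) on the 4 induced arrays in time order.

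NRP1 was the member that changed most. It encodes neuropilin-1, the co-receptor for SEMA3A and for VEGF. Its brightest probe set read 61.1, 131.5, 161.9, 457.1 and 960.3. Each array was higher than the one before it. Relative to 0 h, with the 4.7 added, this was 2.07-fold, 2.53-fold, 7.02-fold and 14.7-fold. NRP1 rose by a fitted log2 change of 3.80 ± 0.25 (limma adjusted p = 3.79e-05), which ranked 1 among the 11944 genes. The steps were unequal: the log2 signal gained 1.05 in the first 24 h and 0.29 in the next 24 h, then 1.47 from 48 to 96 h and 1.06 from 96 to 192 h.

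The other NRP1 probe sets, read on the same 5 arrays, moved the same way. The second, 210510_s_at, read 2.6, 21.2, 23.9, 48.1 and 74.5. Its fitted log2 change was 3.16 ± 0.47 (SE), with an adjusted p of 0.00636 in the same fit run over 26805 probe sets. The third, 210615_at, went from 9.8 through 13.4, 16.8 and 18.9 to 36.3 and did not pass the threshold (1.35 ± 0.46, adjusted p = 0.193). Its mean signal of 19.0 was past the filter only through the 192 h array. The fourth, 1561365_at, stayed under the signal filter and read 1.0 at 0 h, the floor, and 4.9, 2.9, 6.9 and 10.5 later. On all 4 probe sets every induced array was above the 0 h array. Of the 44 member probe sets past the filter, 2 passed the threshold in the probe set fit, both of them NRP1's, against 1.84% of all probe sets.

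NRP1 passed without each array in turn, with fitted log2 changes of 3.49 to 3.98. Leaving out the 192 h array gave the lowest of these (adjusted p = 8.22e-04). Allowing for the poly-A spike-ins in the model gave 4.19 (adjusted p = 5.17e-05). Setting the 0 h array against the 4 induced arrays as 1 group gave 2.27 with an adjusted p of 0.781; in that setting the spread from 131.5 to 960.3 among the induced arrays counts as error. Over all 16 alternatives the adjusted p of NRP1 ran from 8.75e-12 to that value. NRP1 is also made by endothelial cells. The summed signal of the blood and endothelial markers was 73.7, 71.7, 100.1, 74.7 and 51.1. The endothelial cadherin CDH5 read 19.3, 23.9, 36.6, 22.5 and 12.3. Both were highest at 48 h and lowest at 192 h. PECAM1, under the filter, read 15.6, 16.7, 17.1, 27.5 and 9.8. Schwann cell markers summed to 39.0, 34.7, 26.7, 56.9 and 57.2, higher on the last 2 arrays, where NRP1 was highest too. ERBB3 was the largest part (32.7 and 27.3 there). SOX10 read 9.7, 9.7, 2.7, 2.1 and 13.4, lowest at 96 h and highest at 192 h. PMP2 read 6.2, 1.0, 1.0, 5.3 and 9.6, also highest at 192 h. CDH19 read 7.2, 6.8, 7.4, 11.1 and 5.9, lowest at 192 h, and S100B stayed at 1.0 to 5.7. The part of such other cells in the NRP1 result was not tested.

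**Figure D1:**
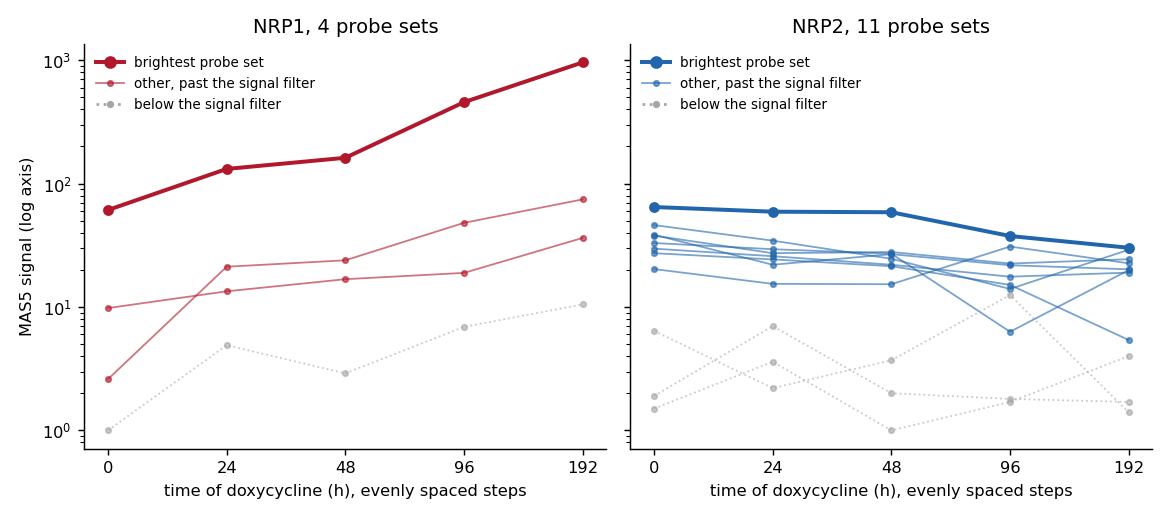
MAS5 signal (log axis) of every NRP1 and NRP2 probe set against time of doxycycline, 1 array per time point; thick lines are the brightest probe set of each gene and dotted grey lines are probe sets under the signal filter. The brightest NRP1 probe set climbs from 61.1 to 960.3 while that of NRP2 declines from 64.6 to 30.2.

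NRP2 encodes neuropilin-2, the preferred co-receptor for SEMA3F, which also binds VEGF-C. Its brightest probe set read 64.6, 59.2, 58.6, 37.6 and 30.2 at 0, 24, 48, 96 and 192 h. No array was higher than the one before it, and the 192 h signal was 0.504 of that at 0 h after the offset was added. The fitted log2 change was -1.03 ± 0.30 (limma adjusted p = 0.0931), so NRP2 did not pass the threshold. With array medians set equal, which moves the median of all genes by about -0.11, NRP2 did pass (-1.13, adjusted p = 0.0459). The gene has 11 probe sets, of which 8 passed the signal filter, and 7 of those had a negative fitted change. They ran from -1.55 for 1555468_at, which went from 27.3 to 5.4, to 0.43 for 223510_at, which read 20.3, 15.4, 15.3, 30.9 and 22.6. None of the 8 passed in the probe set fit. On the brightest probe set of each neuropilin the largest step was that from 48 to 96 h. There the log2 signal of NRP1 gained 1.47 and that of NRP2 dropped by 0.58. This did not hold for every probe set. NRP1 210510_s_at and NRP2 214632_at moved most in the first 24 h, to log2 ratios of 1.83 and -0.69.

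Across the family, 1 of 21 tested members rose (4.76%) and 0 fell. Over all 11944 genes 3.47% passed the threshold, 2.02% upward and 1.46% downward, so the share of members called was near that of all genes. With array medians set equal, 43.5% of all called genes rose, against 58.1% here. At an unadjusted p under 0.05 there were 9 members (42.9%), against 17.0% of all genes. A fitted change above 0 was found for 16 of the 21 (76.2%), against 50.3% of all genes, and the median fitted log2 change was 0.28 for the members and 0.003 for all genes. These counts describe the members that passed the filter and are not a test of the list. The other 10 members were under the filter, with mean signals of 2.6 to 15.5; the dimmest member tested, SEMA4A, had 21.4.

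**Figure D2:**
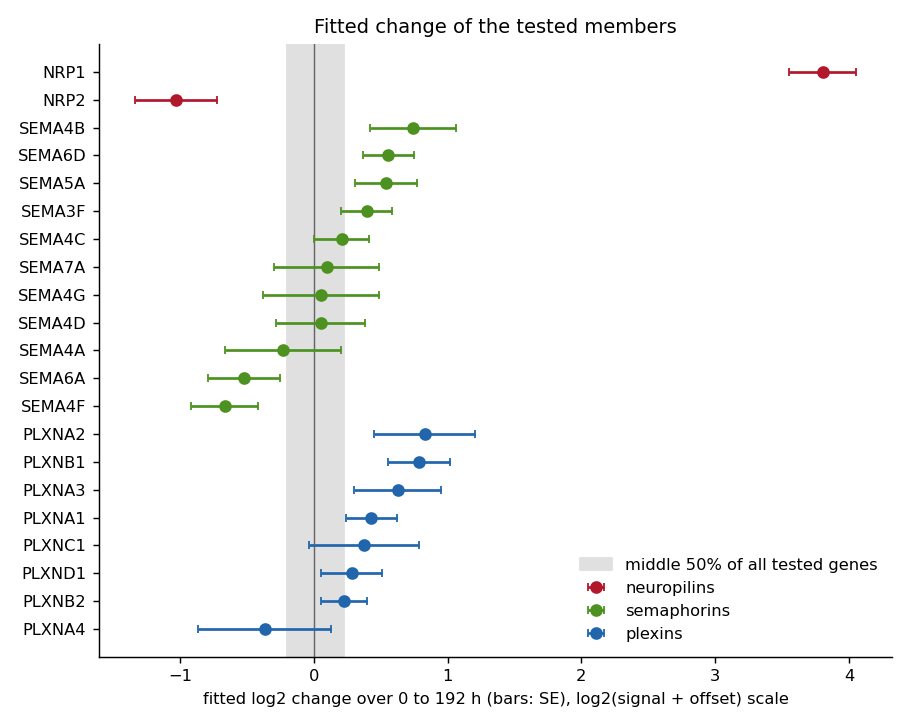
Fitted log2 change from 0 to 192 h, with its SE as a bar, for the 21 tested members by family; the grey band holds the middle 50% of all tested genes. NRP1 at 3.80 lies apart from the other 20 members, which run from -1.03 (NRP2) to 0.83 (PLXNA2).

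By brightest probe set, NRP1 was also the only tested member at least 2-fold from its 0 h signal, at each of the 4 induced times. Such a rise was seen in 0.678%, 1.08%, 2.19% and 2.29% of all genes at the 4 times in order. A drop of at least 2-fold was seen in 0 members at any time, and in 0.946%, 0.653%, 1.17% and 1.93% of all genes at those times. PLXNA4 at 24 h (1.98-fold) and NRP2 at 192 h (0.504 of 0 h) came closest among the rest. Their calls at this fold depend on the offset: 4 members reached 2-fold with an offset 4 times smaller. The calls also depend on the probe set, as some dimmer ones past the filter dropped more than 2-fold. Log2 ratios at 96 h were -1.44 and -1.78 for NRP2 229225_at and 210841_s_at, and -1.98 for SEMA6A 225660_at. NRP2 1555468_at, past the filter only through its 0, 24 and 48 h arrays, was at -1.66 at 192 h.

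The plexins carry the signal into the cell through a domain that acts on small GTPases. Of the 9 genes, 8 were tested and 0 passed, with a median fitted log2 change of 0.40. PLXNB1, the receptor for SEMA4D, came closest to the threshold. It read 85.9, 100.2, 108.8, 164.7 and 136.6, and all 4 induced arrays lay above 0 h. Its fitted log2 change was 0.79 ± 0.23 (SE), with a limma adjusted p of 0.0917.

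The A-type plexins are common partners of neuropilins. PLXNA1 read 527.2, 468.1, 442.3, 566.9 and 697.8 over the course, below 0 h at 24 and 48 h and above it later, for a fitted log2 change of 0.43 ± 0.19 (adjusted p = 0.275). Leaving out the 192 h array gave 0.0922, and leaving out the 0 h array 0.83. Its other probe sets gave 0.11 and 0.18. PLXNA2, which also serves as a receptor for SEMA6A, had 21.3 at 0 h and 35.9, 25.8, 40.6 and 45.8 later. All its induced arrays were above 0 h, and its fitted log2 change of 0.83 ± 0.38 was the highest of the plexins (adjusted p = 0.29). The second PLXNA2 probe set was not above 0 h until 96 h, at 34.5, 17.1, 28.4, 36.4 and 34.5 (0.37), so the gene's probe sets differed at 24 h. PLXNA3 went from 33.0 through 30.0, 42.1 and 49.1 to 47.4 (0.63 ± 0.32, adjusted p = 0.359), and its other tested probe set stayed between 34.9 and 44.7. PLXNA4, a receptor for SEMA3A with NRP1, was highest at 24 h, at 42.6 against 19.2 at 0 h and 16.5 at 192 h. Its fitted log2 change was -0.36 ± 0.50, and 0.17 without the 192 h array, so it had no settled direction.

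None of the remaining tested plexins passed. PLXNB2, which binds class 4 semaphorins, read 411.5, 441.3, 354.6, 458.6 and 492.8 (fitted log2 change 0.23 ± 0.17, adjusted p = 0.575). PLXND1, the receptor for SEMA3E, read 131.2, 110.2, 110.7, 156.4 and 142.1 (0.28 ± 0.23), with 0.31 and -0.27 for its other probe sets. PLXNC1, the receptor for SEMA7A, lay between 19.9 and 33.9 (0.38 ± 0.41). PLXNB3 was under the filter and read 3.0, 12.5, 23.2, 1.6 and 11.3. By brightest probe set, 4 of the 8 tested plexins were above their 0 h level at 24 h and at 48 h. At 96 h all 8 were, against 52.4% of all genes. At 192 h 7 of the 8 were, PLXNA4 being the exception, against 48.6% of all genes. The other tested probe sets of PLXND1 were below 0 h at 96 h, with log2 ratios of -0.02 and -0.24.

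Promoters of the members were searched for TGACAG, the core site of MEIS proteins, on both strands, because the hairpin is directed against MEIS1. RefSeq windows of 250 bases before a gene's start (GRCh38.p14) were found for 27 of the 31 members; NRP1, SEMA3A, SEMA6A and SEMA6B were not used here. The core occurred in 7 of 48 member windows (14.6%), a share near the 13.0% of all 35116 windows. It was present for PLXNA2, PLXNA4, PLXNB2, SEMA3E, SEMA4A and SEMA6D. The windows of the 3 plexins, each the only window of its gene, are printed here 5′ to 3′ along the gene with the core in capitals. All 3 genes lie on the minus strand. The first base of the match is 142 bases before the start in PLXNA2 (chr1:208244385-208244634), 176 in PLXNA4 (chr7:132576471-132576720), where the core reads CTGTCA because it lies on the other strand, and 129 in PLXNB2 (chr22:50301670-50301919). A match describes the letters only, and the 3 genes had fitted log2 changes of 0.83, -0.36 and 0.23, none past the threshold.
PLXNA2: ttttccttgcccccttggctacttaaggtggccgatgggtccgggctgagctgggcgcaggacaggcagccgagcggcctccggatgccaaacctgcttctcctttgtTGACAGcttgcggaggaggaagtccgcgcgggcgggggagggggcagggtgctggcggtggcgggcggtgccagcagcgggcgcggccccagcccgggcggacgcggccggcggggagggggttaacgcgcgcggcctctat
PLXNA4: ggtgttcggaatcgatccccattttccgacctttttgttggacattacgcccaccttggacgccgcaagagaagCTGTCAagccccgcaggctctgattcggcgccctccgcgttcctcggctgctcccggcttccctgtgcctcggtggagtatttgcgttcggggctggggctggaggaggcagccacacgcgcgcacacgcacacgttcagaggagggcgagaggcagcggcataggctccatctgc
PLXNB2: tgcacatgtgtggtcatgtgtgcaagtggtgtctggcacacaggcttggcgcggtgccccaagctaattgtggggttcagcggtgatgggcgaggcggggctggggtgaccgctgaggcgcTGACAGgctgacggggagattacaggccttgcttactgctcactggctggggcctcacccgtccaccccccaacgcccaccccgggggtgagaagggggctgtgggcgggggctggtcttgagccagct

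Among the semaphorins 11 of 20 were tested, 0 passed, and the median fitted log2 change was 0.10. Those with a change above 0 numbered 8 of 11, of which SEMA4D and SEMA4G were below 0 with array medians set equal or after quantile normalization. No secreted class 3 ligand other than SEMA3F passed the signal filter.

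SEMA3F, the main ligand of NRP2, read 177.6, 154.6, 208.8, 196.3 and 224.0. It was below 0 h at 24 h and above it at the 3 later times, with a fitted log2 change of 0.40 ± 0.19 (adjusted p = 0.314). Its other 2 probe sets were under the filter, at 3.0 to 16.8. SEMA3A, the classic ligand of NRP1, was under the filter on its brightest probe set at 12.4, 13.6, 20.7, 20.7 and 6.3. SEMA3C, which can bind either neuropilin, read 8.5, 6.2, 13.7, 8.7 and 21.1. SEMA3B (1.4 to 3.7), SEMA3D (1.0 to 10.8), SEMA3E (1.0 to 10.3) and SEMA3G (2.4 to 25.5) were dim as well.

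Of the membrane-bound class 4 semaphorins 6 were tested. SEMA4B read 45.8, 47.0, 48.6, 89.4 and 66.5, flat until 48 h and highest at 96 h, and had the highest fitted log2 change of the tested semaphorins, 0.74 ± 0.32 (adjusted p = 0.266). SEMA4F had the lowest, -0.66 ± 0.25 (adjusted p = 0.196). It went from 183.6 at 0 h to 126.3, 150.4, 149.2 and 93.0, with every induced array below 0 h, while its other 2 tested probe sets gave -0.15 each. In the model that allows for the poly-A spike-ins, SEMA4F passed the threshold (-1.14, adjusted p = 0.0419), while without the 192 h array its change was -0.25 (adjusted p = 0.75). SEMA4C, a PLXNB2 ligand, read 351.1, 297.7, 405.8, 448.8 and 343.7 on its brightest probe set, ending near where it began (0.21 ± 0.21). The other SEMA4C probe set read 49.5, 78.4, 81.6, 89.6 and 65.2, with every induced array above 0 h (0.37). SEMA4D, the PLXNB1 ligand, stayed between 32.6 and 46.0 (0.05 ± 0.33) on its brightest probe set. Its other probe set, 228891_at, was at the floor of 1.0 at 0 and 24 h and read 3.9, 10.3 and 10.1 later, still under the filter. SEMA4A (17.1 to 27.5; -0.23) and SEMA4G (16.7 to 30.9; 0.06) lay near the filter.

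SEMA6D and SEMA5A had 3 tested probe sets each, all with a fitted change above 0. SEMA6D, a transmembrane ligand of A-type plexins, read 199.8, 171.9, 198.2, 261.3 and 265.6, and the 96 and 192 h arrays were above the first 3. Its fitted log2 change was 0.56 ± 0.19 (adjusted p = 0.151), with 0.47 and 0.67 for the others. SEMA5A, which carries thrombospondin repeats, read 95.7, 99.9, 95.0, 108.2 and 149.5, with the 192 h array apart from the other 4. Its fitted log2 change was 0.54 ± 0.23 (adjusted p = 0.255) and 0.18 without the 192 h array. SEMA6A, a ligand of PLXNA2 and PLXNA4, went from 75.2 to 63.8, 52.9, 59.6 and 47.8, all below 0 h (-0.52 ± 0.27, adjusted p = 0.36). The second tested SEMA6A probe set gave -1.03, reading 38.3 at 0 h, 6.2 at 96 h and 22.3 at 192 h. SEMA7A, which is anchored to the membrane by a lipid and also binds integrins, stayed between 21.8 and 35.1 (0.10 ± 0.39). SEMA5B (3.6 to 7.7), SEMA6B (11 to 27.3) and SEMA6C (3.0 to 14.1) were under the filter.

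**Figure D3:**
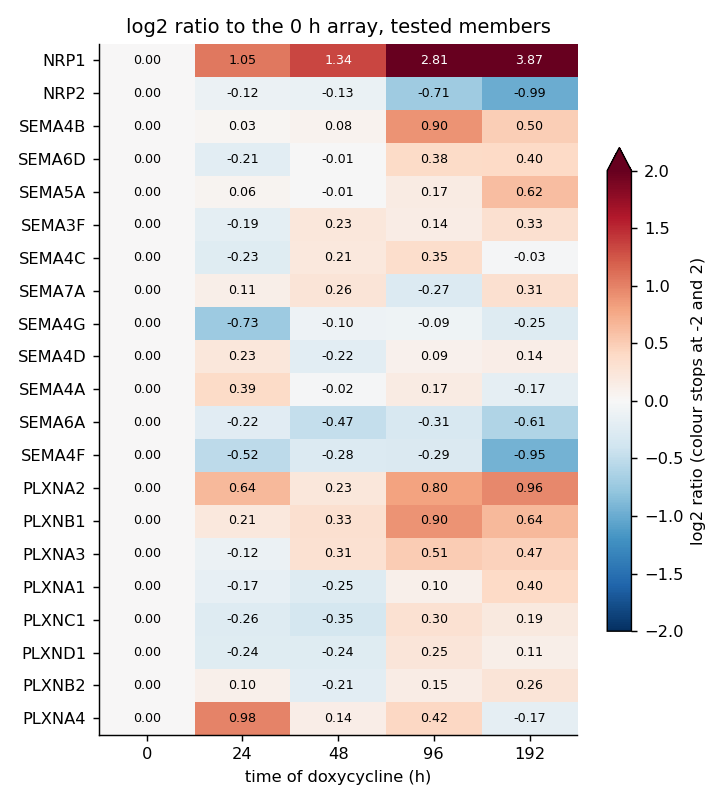
Log2 ratio of each array to the 0 h array for the 21 tested members, with time of doxycycline in columns and the value printed in each cell; colours stop at -2 and 2. Each member is shown by its brightest probe set. NRP1 reaches 3.87 at 192 h, NRP2 -0.99, and the 8 plexins are all above 0 at 96 h.

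Genes that work beside this family were counted from lists. Of 27 tested cytoplasmic effectors 1 rose and 0 fell, of 6 tested co-receptors 1 rose and 0 fell, and of 5 tested neuropilin ligands outside the semaphorins 0 rose and 1 fell. The share of all genes past the threshold was 3.47%. The median fitted log2 changes of these lists were 0.05, -0.17 and 0.08. GIPC1, PAK1, RHOD and VEGFD were not analysed here.

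L1CAM, the adhesion molecule that associates with NRP1 in the SEMA3A receptor, rose. Its tested probe set read 103.1, 116.1, 116.3, 239.8 and 266.4. The first 3 arrays lay close together and the last 2 were more than 2-fold above 0 h. The fitted log2 change was 1.47 ± 0.25 (limma adjusted p = 0.00811), and 1.42 with an adjusted p of 0.0678 without the 192 h array. NRCAM, which partners NRP2, read 133.4, 177.7, 158.8, 207.9 and 182.0, all induced arrays above 0 h, and did not pass (0.44 ± 0.20, adjusted p = 0.304; 0.19 without the 0 h array). ITGB1, the integrin subunit in SEMA7A receptors, had -0.31 ± 0.14 (adjusted p = 0.275). The VEGF receptor genes were dim: FLT1 read 8.6 to 33.0 (-0.27 ± 0.61), and KDR at 9.1 to 15.5 was under the filter.

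VEGFC, a ligand of NRP2, fell. It read 95.0, 64.2, 63.7, 53.7 and 29.3, and every induced array was below 0 h. Its fitted log2 change was -1.34 ± 0.30 (limma adjusted p = 0.0304). The call was lost without the 0 h array (-1.31, adjusted p = 0.244) and without the 192 h array (-0.93, adjusted p = 0.22). VEGFA, a ligand of NRP1, followed a U-shaped course of 195.1, 117.6, 115.7, 163.0 and 259.7. A straight line described it poorly (0.51 ± 0.36, adjusted p = 0.545); without the 0 h array it passed the threshold at 1.53 (adjusted p = 0.0396). PGF (-0.18 ± 0.20) and TGFB1 (0.26 ± 0.24) did not pass.

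TIAM1, an exchange factor that activates RAC1, rose among the effectors. It read 521.4, 518.4, 569.2, 704.4 and 831.1, level at 24 h and higher at each later time, with a fitted log2 change of 0.71 ± 0.15 (limma adjusted p = 0.0193) and 0.79 for its other tested probe set. The call was lost without the 96 h array (0.70, adjusted p = 0.0517), when the 192 h array was left out (0.57, adjusted p = 0.163), in the model that allows for the spike-ins (0.76, adjusted p = 0.0623) and with array medians set equal (0.60, adjusted p = 0.127). L1CAM, TIAM1 and VEGFC all missed the threshold with no signal filter and without the eBayes trend, with the same fitted changes, and with 0 h set against the 4 induced arrays (0.71, 0.30 and -0.85). ARHGEF12, the RHOA exchange factor that docks on B-type plexins, read 171.9, 239.5, 215.8, 275.3 and 273.4, with all induced arrays above 0 h (0.60 ± 0.18, adjusted p = 0.104). Without the 0 h array its change was 0.36 (adjusted p = 0.619). RND1, a GTPase that binds plexins, was dim at 3.7 to 33.7 (-1.16 ± 0.68), and the actin regulator LIMK1 read 19.1 to 43.5 (0.63 ± 0.42). None of the 5 collapsin response mediators, cytoplasmic relays of SEMA3A, passed. DPYSL4 came closest at 489.3, 526.6, 598.7, 585.3 and 706.7, with all induced arrays above 0 h (0.48 ± 0.14, adjusted p = 0.079), and DPYSL5 had 0.30 ± 0.23. CRMP1 read 1183 to 1378 (0.04), DPYSL2 2346 to 2932 (-0.004) and DPYSL3 251.7 to 286.3 (-0.12).

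**Figure D4:**
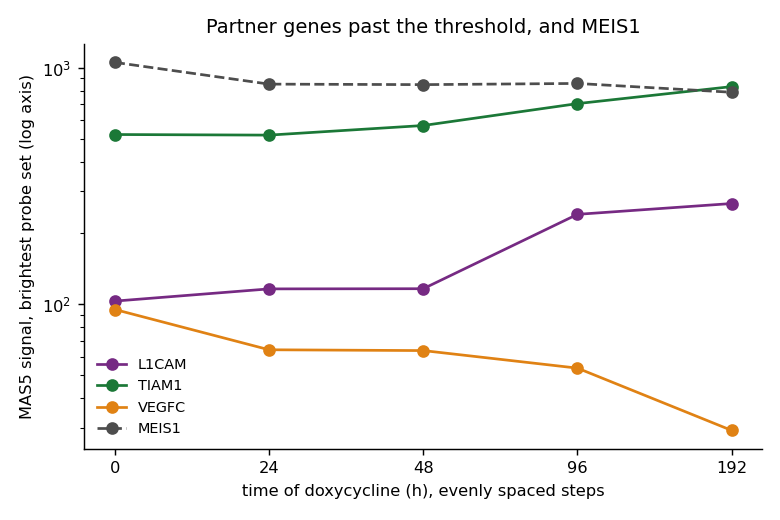
MAS5 signal (log axis) of the brightest probe set of L1CAM, TIAM1, VEGFC and the hairpin's target MEIS1 against time of doxycycline, 1 array per time point. L1CAM goes from 103.1 to 266.4, TIAM1 from 521.4 to 831.1, VEGFC from 95.0 to 29.3 and MEIS1 from 1052 to 786.6.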

How the data were processed

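Total RNA of 5 IMR32 samples went onto 1 array each. What the authors deposited is taken as MAS5 signal on a log2 scale. MAS5 and GCOS come from the submitters' processing notes, which give no version here; the scale, the lowest signal of 1 and the array scaling (2% trimmed means of 100.02 to 100.03) were inferred from the numbers. Background correction with mismatch probes adds noise at low signal. The number of arrays limits the precision. Signals were made linear, 4.7 was added (the arrays' 25th percentiles have this median), and log2 was taken. In the platform annotation, 41091 probe sets have 1 gene and 1801 have more than 1; gene identifiers matched to RefSeq (GRCh38.p14) changed 0 symbols. The trend used limma 3.58.1 in R 4.3.3 (lmFit and eBayes with trend=TRUE, Benjamini-Hochberg adjustment). It had 3 residual degrees of freedom and 9.07 from the prior. The code was also run on simulated data with independent noise and straight-line changes, which cannot test for shifts of whole arrays. The members and lists were chosen with earlier results of these data known. Every member is named. Partner genes are named where they passed the threshold, filled up to 4 per list by size of change; a few others are given as values and were chosen after their values were seen. Alternatives covered the offset, filter, scaling, probe set summary, time axis, eBayes trend, spike-in covariate and leaving out each array.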

Additional observations from a re-analysis of the deposited data

How the results depend on the processing

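NRP1 passed in 15 of 16 alternatives (fitted log2 change 2.27 to 4.19) and NRP2 in 1 (-1.28 to -0.49); the cause of these and the following differences was not tested, except that leaving out arrays or dim genes changes what enters the fit. No paired analysis was possible because each time point has 1 array. In all, 415 genes passed, 21 with no filter, 22 with eBayes without trend, 230 with the poly-A covariate, 0 with 0 h against the 4 induced arrays (limma; 689 genes at an unadjusted p under 0.05), and 190 to 416 leaving out each array. Members that rose numbered 0 with 0 h against the induced arrays, and members that fell 1 with array medians set equal and 1 with the covariate. Members at least 2-fold from 0 h at any time numbered 4 with an offset 4 times smaller, 6 with no filter, 3 with medians set equal, 3 after quantile normalization and 2 with the mean over probe sets. Member probe sets past the threshold numbered 0 with no filter, with 0 h against the induced arrays or without the eBayes trend, 1 at 2 times the filter, and 1 to 2 leaving out each array. Of the partner lists 3 genes passed, 0 in the same 3 settings, and 0 to 3 leaving out each array.

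Signs turned only for genes that did not pass. With 0 h against the induced arrays the change was 0.0904 for SEMA4A, -0.30 for SEMA4G, 0.34 for PLXNA4, -0.0294 for PLXNC1, -0.0303 for PLXND1 and -0.32 for VEGFA. With the covariate it was -0.23 for SEMA4C and -0.35 for SEMA4G, with medians set equal -0.0483 for SEMA4D and -0.0361 for SEMA4G, after quantile normalization -0.0172 and -0.0308, and with the mean over probe sets 0.14 for PGF. Leaving out each array gave -0.60 to 0.0406 for SEMA4A, -0.0724 to 0.16 for SEMA4D, -0.22 to 0.58 for SEMA4G, -0.27 to 0.31 for SEMA7A, -1.28 to 0.17 for PLXNA4, -0.72 to 0.23 for FLT1, -0.31 to 1.53 for VEGFA and -0.33 to 0.14 for PGF.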
